A study of Mus musculus with 3 samples.

Results

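Chromatin accessibility was described at 4 transcription factor genes, Osr1, Osr2, Tcf4 and Tcf7l2, grouped here for their link to muscle connective tissue (in the case of Tcf4 by its name only), in 3 single-nucleus ATAC-seq libraries of mouse limb mesenchymal progenitors (MPs). The members were all called peaks that overlapped the body of one of these genes or the 20 kb on either side of it in the mm10 genome. They came to 410 of the 506515 peaks of the 3 libraries: in order of stage, 152 of 190443, 104 of 102459 and 154 of 213613. Merged where they overlapped, they formed 174 intervals of 266531 in the series, numbered along each gene (Osr1_1, Osr1_2 and so on). Of these, 72 held a peak of every library and could be compared between stages (shared intervals), and in 22 a single peak per library lay at the same position with at least 50% reciprocal overlap (matched intervals).

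Each embryonic day (E12.5, E14.5 and E16.5) had 1 library, made from sorted tdTomato+ MPs of C57BL/6J embryos that were Hic1CreERT2/CreERT2;Rosa26LSLtdTomato/tdTomato. Both copies of Hic1 therefore carried the CreERT2 knock-in in every group, and cells were marked only where Hic1 was active while tamoxifen, given to the dam at E10 as 7.5 mg by gavage, was still effective. Whole forelimbs were taken at the first 2 stages and only a segment around the elbow at E16.5. Dispase was used for digestion at E12.5, Collagenase A with Pronase and DNase at the later stages, and forelimbs were pooled within litters. Cells bearing the blood and endothelial surface markers Ter119, F4/80, CD11b, CD31, CD117 or CD45 had been sorted out. With 1 library per stage, stage, tissue segment, digestion and library cannot be told apart, no test between stages was made, and every interval given is a 95% exact interval that covers counting error only.

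Osr1 and Osr2 encode odd-skipped related zinc-finger transcription factors that are active in irregular connective tissue and joint-forming regions of the developing limb. Tcf7l2 encodes an HMG-box factor of the TCF/LEF family, which binds beta-catenin and carries the Wnt signal to its target genes, and it is this protein that the muscle literature calls TCF4, the marker of muscle connective tissue fibroblasts. The gene now named Tcf4 is another one: it encodes an E-protein, a basic helix-loop-helix factor that pairs with tissue-specific partners, so the 4 genes belong to 3 families.

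Sequences of some of the elements named below are shown first, as 300 bases of mm10, plus strand, around the centre of the E14.5 peak. Capitals mark any match, on either strand, to the letters CTTTGAT or CTTTGAA (TCF/LEF factors), AACAAT (SOX factors), CAGCTG or CAGGTG (E-boxes, read by E-proteins) and CAGTAGC (odd-skipped factors). The first 3 windows belong to the upstream elements of Osr1 and Osr2 whose accessibility differed most between stages at a matched position. They lie at chr12:9550772-9551071 (Osr1_1), chr15:35278525-35278824 (Osr2_2) and chr15:35286783-35287082 (Osr2_4).
Osr1_1: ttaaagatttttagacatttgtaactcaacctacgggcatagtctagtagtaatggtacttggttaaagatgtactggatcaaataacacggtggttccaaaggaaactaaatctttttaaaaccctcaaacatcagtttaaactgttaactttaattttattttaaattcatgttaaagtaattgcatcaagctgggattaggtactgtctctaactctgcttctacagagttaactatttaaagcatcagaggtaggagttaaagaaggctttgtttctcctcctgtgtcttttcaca
Osr2_2: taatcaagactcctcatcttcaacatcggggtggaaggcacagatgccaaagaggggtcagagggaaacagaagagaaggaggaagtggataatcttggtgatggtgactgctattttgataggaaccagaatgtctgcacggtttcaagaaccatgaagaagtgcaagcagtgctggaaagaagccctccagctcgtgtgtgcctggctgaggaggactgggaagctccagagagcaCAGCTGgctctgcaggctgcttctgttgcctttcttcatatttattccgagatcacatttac
Osr2_4: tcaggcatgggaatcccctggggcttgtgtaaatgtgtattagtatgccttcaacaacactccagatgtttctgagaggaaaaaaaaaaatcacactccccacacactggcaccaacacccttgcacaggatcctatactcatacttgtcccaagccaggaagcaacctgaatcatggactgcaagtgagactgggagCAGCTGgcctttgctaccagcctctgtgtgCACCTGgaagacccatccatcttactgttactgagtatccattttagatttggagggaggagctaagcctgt

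The next 3 windows belong to Tcf7l2 elements that differed between nuclei gated on lineage loci. They lie at chr19:55779741-55780040 (Tcf7l2_15, intron), chr19:55880744-55881043 (Tcf7l2_56, intron) and chr19:55940928-55941227 (Tcf7l2_66, downstream of the gene).
Tcf7l2_15: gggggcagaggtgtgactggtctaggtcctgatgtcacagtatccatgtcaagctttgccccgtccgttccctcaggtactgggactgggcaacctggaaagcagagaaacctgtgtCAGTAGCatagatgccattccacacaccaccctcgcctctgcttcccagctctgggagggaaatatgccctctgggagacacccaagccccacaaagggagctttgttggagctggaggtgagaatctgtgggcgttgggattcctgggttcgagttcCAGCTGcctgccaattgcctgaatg
Tcf7l2_56: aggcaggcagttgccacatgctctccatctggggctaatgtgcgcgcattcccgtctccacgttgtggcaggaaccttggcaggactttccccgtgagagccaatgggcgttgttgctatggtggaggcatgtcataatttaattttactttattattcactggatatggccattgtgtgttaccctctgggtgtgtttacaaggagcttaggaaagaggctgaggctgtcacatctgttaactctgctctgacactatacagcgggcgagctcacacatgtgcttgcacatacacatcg
Tcf7l2_66: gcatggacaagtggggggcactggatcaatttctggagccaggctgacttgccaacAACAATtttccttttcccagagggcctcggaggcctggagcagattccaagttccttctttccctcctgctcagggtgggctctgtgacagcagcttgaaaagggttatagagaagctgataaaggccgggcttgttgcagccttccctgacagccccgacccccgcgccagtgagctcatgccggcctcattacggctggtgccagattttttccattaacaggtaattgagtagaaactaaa

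For the 2 start sites of Tcf7l2 listed by RefSeq (GRCm38.p6), the window from upstream of the start into the transcript is at chr19:55741560-55741859 (promoter 1, the first start of the gene) and at chr19:55895071-55895370 (promoter 2, inside the gene).
Tcf7l2 promoter 1: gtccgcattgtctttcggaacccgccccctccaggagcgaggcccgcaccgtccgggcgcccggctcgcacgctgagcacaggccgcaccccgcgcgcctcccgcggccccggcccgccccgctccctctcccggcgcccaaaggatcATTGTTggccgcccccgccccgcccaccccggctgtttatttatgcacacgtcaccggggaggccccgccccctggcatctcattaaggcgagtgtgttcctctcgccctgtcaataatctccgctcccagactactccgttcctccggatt
Tcf7l2 promoter 2: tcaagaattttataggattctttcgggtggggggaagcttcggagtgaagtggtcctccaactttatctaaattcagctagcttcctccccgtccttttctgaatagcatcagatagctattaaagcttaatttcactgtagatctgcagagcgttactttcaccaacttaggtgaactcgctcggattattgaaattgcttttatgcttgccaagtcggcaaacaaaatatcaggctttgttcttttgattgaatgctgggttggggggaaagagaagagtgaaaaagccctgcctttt

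Of the 22 matched windows of the 4 genes, 6 held an E-box, 4 the SOX letters, 2 the odd-skipped letters and 0 the TCF/LEF letters. Among 43778 matched windows of the series the shares were 36.9%, 11.4%, 3.18% and 9.45%, in that order. Among 32841 RefSeq promoters they were 32.9%, 10.7%, 3.70% and 8.65%. Osr2_4 held both kinds of E-box, with CAGGTG on the minus strand, and Tcf7l2_15 held both an E-box and the odd-skipped letters. Promoter 1 of Tcf7l2 had a GC content of 70% against 42% at promoter 2 and 33.3% in Osr1_1. The SOX letters were added after the gate values below had been seen. Of the elements highest in the chondrogenic gate below, Tcf7l2_66 held them, and Tcf7l2_15 and Tcf4_31 did not. Tcf4_31, a matched interval whose window is not shown, held none of the letters of any kind. A match is a description of letters, not of a bound site.

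The libraries held 8294, 20023 and 14048 nuclei in order of stage, with a total of 87048167, 204289151 and 413425059 cut sites and a median of 6003.5, 8575 and 26694 cut sites per nucleus. Libraries shared from 151 to 401 cell barcodes in pairs, 6 in all 3. Each library had its own peak calls, which were narrow at E14.5: the called width at Tcf7l2 was 78271, 30720 and 85038 bp in order of stage. A sum over called peaks and the same sum per kb of called width therefore differed in direction at several loci, and both are given. Loci of cell types outside the lineage or removed by the sort (16 of 20 marker genes of myogenic, endothelial, epithelial, blood and Schwann cells had a value) had a fragment in at most 5.06%, 5.01% and 5.65% of nuclei at matched depth, and their summed accessibility was 491, 364 and 503 CPM (cut sites per 1000000 in shared autosomal intervals). Their part in the results was not tested.

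All 4 loci were open at every stage, and in CPM none differed past 1.5-fold between any 2 stages, while per kb of called width each did at 1 step or more (0.65 on the log2 scale at Osr1 and 0.71 at Tcf7l2 at E14.5 over E12.5, and -0.87, -0.76 and -0.69 at Osr2, Tcf4 and Tcf7l2 at E16.5 over E14.5). Per kb, 34.6% of all genes were past 1.5-fold higher and 0.28% lower at the first of these steps, and 0.143% higher and 69.8% lower at the next, so the loci were near the background. In order of stage, Osr1 had 100.3 CPM (97.1 to 103.5), 121.9 (119.8 to 124.1) and 120.7 (119.0 to 122.3). Osr1 was lowest at E12.5, and its later values overlapped. Osr2 went the other way in CPM, with 147.8 CPM (143.9 to 151.8), 118.4 (116.3 to 120.5) and 123.5 (121.8 to 125.2). Per kb of called width the 2 loci did not differ in this way. Osr1 had 5.73, 8.98 and 6.64 CPM per kb and Osr2 had 7.58, 10.2 and 5.59, each highest at E14.5. Tcf4, the longest locus, had 404.4 CPM (398.0 to 410.9), 426.0 (422.0 to 430.0) and 467.1 (463.8 to 470.3), and was the one locus of the 4 that was higher in CPM at each later stage. This order of Tcf4 depended on the measure: E16.5 over E14.5 was -0.25 on the log2 scale at matched positions, -0.018 with the median region as the scale and -0.76 per kb, and E14.5 over E12.5 was -0.12 with every peak of a library. Tcf7l2 was lowest at E14.5, with 349.6 CPM (343.7 to 355.6), 266.9 (263.7 to 270.0) and 381.3 (378.3 to 384.2).

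On the log2 scale, E14.5 over E12.5 came to 0.28 at Osr1, -0.32 at Osr2, 0.075 at Tcf4 and -0.39 at Tcf7l2. Across 17531 protein-coding genes the median was 0.12, and 3.23% were past 1.5-fold higher and 6.35% lower. E16.5 over E14.5 came to -0.015, 0.061, 0.13 and 0.51 in the same order, beside a median of -0.13, with 5.32% of all genes past 1.5-fold higher and 3.13% lower. At this step Tcf7l2, at 1.43-fold, lay above the 90th percentile of all genes in CPM, which was 0.35 on the log2 scale. This high rank depended on the measure. Divided by called width, the ratio of Tcf7l2 was -0.69, level with that of the median gene, also -0.69. With matched positions only, Tcf7l2 was still higher in the later library, but by less than over all its shared intervals. E16.5 over E12.5 came to 0.27, -0.26, 0.21 and 0.13, beside a median of -0.0052, with 5.07% of genes past 1.5-fold higher and 6.84% lower.

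Per kb of called width, the loci kept 1 order in the E12.5 and E14.5 libraries and took another at E16.5. The called width comes from the peak calls of each library, so these orders do not compare levels alone. From E14.5 to E16.5 the shared called width went from 13574 to 18169 bp at Osr1 and from 11582 to 22080 bp at Osr2. At E12.5 Osr2 was highest with 7.58 CPM per kb (7.38 to 7.78), followed by Tcf4 with 6.57 (6.46 to 6.67), Osr1 with 5.73 (5.54 to 5.91) and Tcf7l2 with 5.36 (5.27 to 5.45). At E14.5 the order was Osr2 with 10.2 (10.0 to 10.4), Tcf4 with 9.83 (9.74 to 9.93), Osr1 with 8.98 (8.82 to 9.14) and Tcf7l2 with 8.73 (8.63 to 8.84). Osr1 and Tcf7l2 overlapped in this order at E14.5. At E16.5 Osr1 was highest with 6.64 (6.55 to 6.73), above Tcf4 with 5.83 (5.79 to 5.87), Osr2 with 5.59 (5.52 to 5.67) and Tcf7l2 with 5.43 (5.39 to 5.47). All 4 loci were thus highest per kb at E14.5, as was the median gene, at 0.50 on the log2 scale over E12.5. Tcf7l2 was lowest in CPM and highest in CPM per kb in the same library. Per kb of the whole window, a length that is equal in every library, the order was the same at every stage. Osr2 was then highest with 3.13, 2.51 and 2.62 CPM per kb in order of stage, followed by Osr1 with 1.95, 2.37 and 2.35, Tcf7l2 with 1.51, 1.15 and 1.64 and Tcf4 with 1.05 to 1.21.

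**Figure D1:**
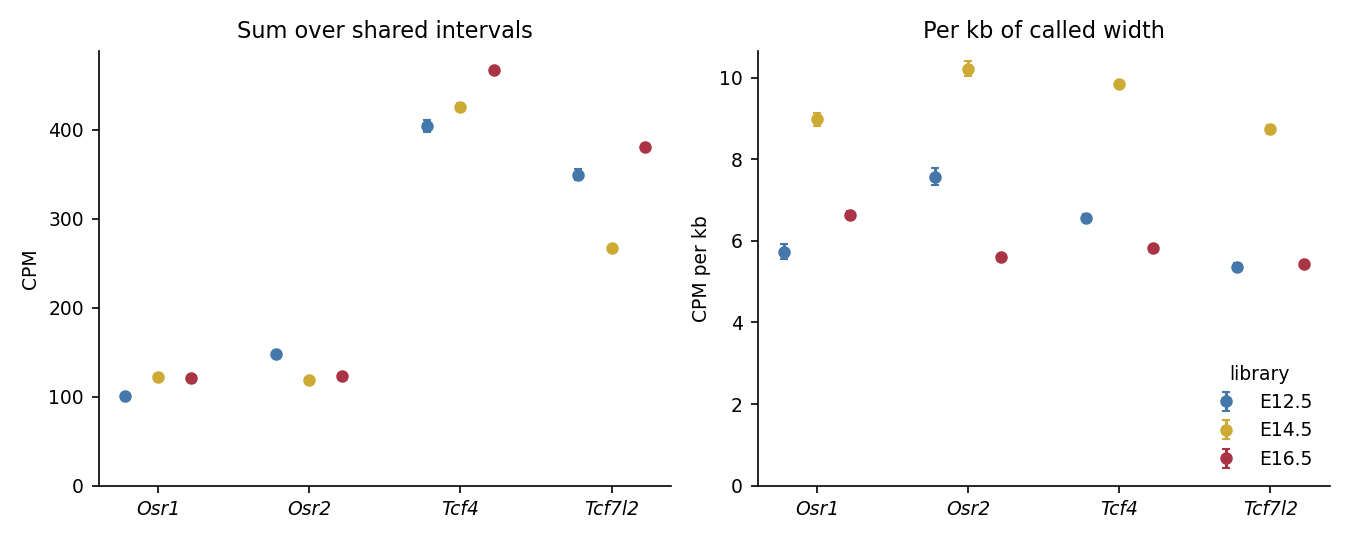
Accessibility of the 4 loci in each library, as the sum over shared intervals in CPM (left) and per kb of called width (right), with exact 95% counting intervals, 1 library per stage. Tcf7l2 dips to 266.9 at E14.5 on the left and peaks at 8.73 per kb on the right.

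The share of nuclei with a fragment at a locus was compared after every nucleus had been thinned to 1074 fragments, which kept 6223, 20023 and 13796 nuclei. Osr1 was open in 8.97% (8.27 to 9.70), 11.8% (11.4 to 12.3) and 11.6% (11.1 to 12.2) of nuclei in order of stage. Osr2 was open in 13.0% (12.2 to 13.9), 11.9% (11.4 to 12.3) and 12.4% (11.9 to 13.0). E12.5 stood apart for Osr1, while for Osr2 all 3 libraries overlapped. Both readings depended on the thinning: at 500 fragments per nucleus the E12.5 share of Osr1, 4.58% (4.11 to 5.09), overlapped that of E16.5, 5.32% (4.95 to 5.70), and with cut sites in place of fragments thinned, Osr2 was open in 20.4%, 18.5% and 20.6% of nuclei, with the interval of E14.5 apart from the other two.
Tcf4 was open in 31.9% (30.8 to 33.1), 35.9% (35.2 to 36.6) and 37.0% (36.2 to 37.9) of nuclei, lowest at E12.5. The later libraries overlapped here but were apart under the 3 other thinnings, in each with E16.5 higher, as in 35.3% (34.6 to 35.9) and 37.7% (36.9 to 38.5) with another random seed. Tcf7l2 was open in 28.3% (27.2 to 29.4), 23.9% (23.3 to 24.5) and 33.0% (32.2 to 33.8), and all 3 libraries were apart. Thinning evened the depth but not the called width, which for these shares of Tcf7l2 was 65271, 30553 and 70213 bp in order of stage. Its low share at E14.5 cannot be told apart from the narrower calls. At the 2 promoter intervals of Tcf7l2 together the E12.5 and E14.5 shares overlapped, with 11.6%, 11.6% and 14.5% in order of stage, although the CPM of the 2 intervals differed in direction, as given further on, and outside them the share was 19.3%, 14.1% and 21.6%. Without thinning the shares followed depth, from 24.5% to 61.1% at Osr1, 32.1% to 64.0% at Osr2, 53.5% to 89.1% at Tcf4 and 49.3% to 87.6% at Tcf7l2, lowest at E12.5 and highest at E16.5 in each.

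**Figure D2:**
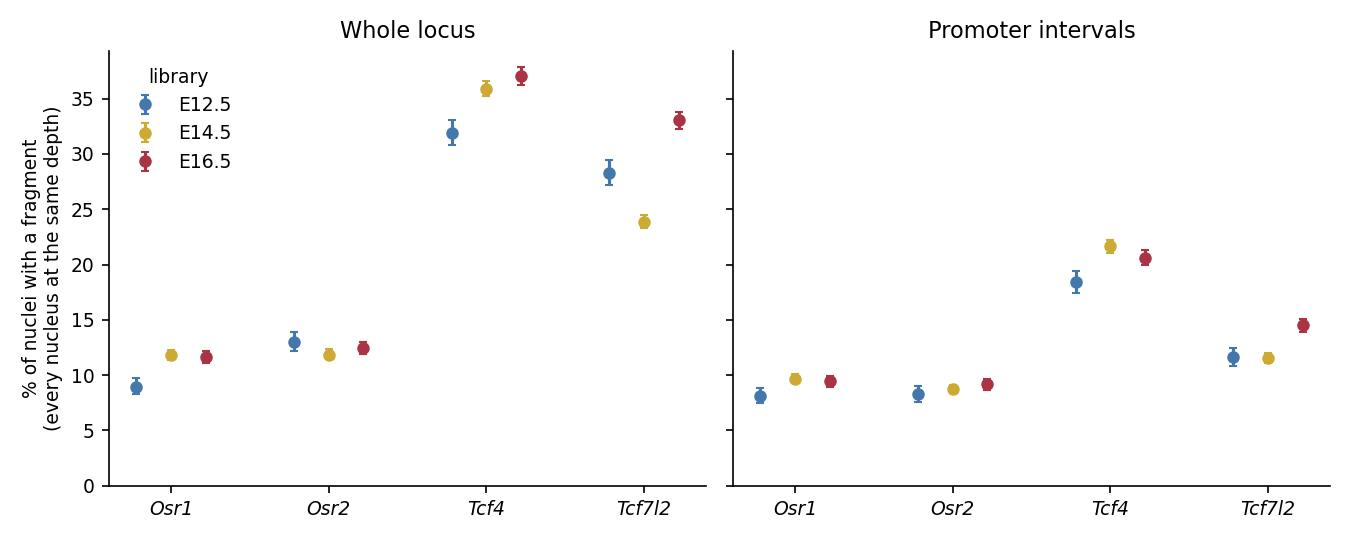
Percent of nuclei with at least 1 fragment at the whole locus (left) and at its promoter intervals (right), every nucleus thinned to 1074 fragments, with exact binomial 95% intervals. Tcf7l2 is lowest at E14.5 over the whole locus, at 23.9%, and over its 2 promoter intervals combined the E12.5 and E14.5 intervals overlap, at 11.6% in both. Thinning does not even the called width, which is narrowest at E14.5 at each locus.

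Nuclei open at 2 of the loci together were about as frequent as the product of the single shares gave. Over the 6 pairs and 3 libraries the ratio of the joint share to the product ran from 0.889 to 1.11, and in 0 of 18 cases did its interval leave 1, beside 2.32% of the pairs of one of these loci with any of the genes at or above the median share. For those pairs the median ratio ran from 0.987 to 1.003 by locus and library. Tcf4 and Tcf7l2, the most open pair, were both open in 8.98%, 8.75% and 12.4% of nuclei in order of stage. Osr1 and Osr2 were both open in 1.19%, 1.42% and 1.28%. No association between loci was detectable at this depth.

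Within the loci, single elements differed more between libraries than the sums did. The same held over the whole series. At E16.5 over E12.5, 26.4% of shared regions were past 1.5-fold higher and 25.8% lower, against 5.07% and 6.84% of genes. Osr1 had 6 intervals, 2 of them shared. Its gene interval, Osr1_4 (chr12:9569640-9585844), covers the promoter and the gene, overlaps the neighbouring gene 1700022H16Rik, and held 91.5, 99.9 and 99.1 CPM in order of stage. The interval Osr1_1 (chr12:9549936-9551899), 22542 bp upstream of the start site, held 8.73 CPM (7.81 to 9.72), 22.0 (21.1 to 22.9) and 21.6 (20.9 to 22.3). Osr1_1 was thus 2.47-fold higher at E16.5 than at E12.5, at a matched position of similar width, and most of the difference between the libraries at Osr1 lay in it. It was open in 0.996%, 2.39% and 2.44% of nuclei at matched depth.

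Osr2 had 10 intervals, 8 of them shared. The interval over its start sites and gene body, Osr2_5 (chr15:35291781-35306971), held 93.2, 87.7 and 89.2 CPM. Upstream, Osr2_4 (chr15:35286038-35287571), 8527 bp from the first start, was lower in CPM at each later stage, with 17.5 CPM (16.2 to 18.9), 11.8 (11.2 to 12.5) and 5.59 (5.24 to 5.95), a log2 ratio of -1.65 from E12.5 to E16.5. Per kb its log2 ratio was 0.054 at E14.5 over E12.5 and -1.05 at E16.5 over E14.5, so the first step was not lower by that measure. Osr2_2 (chr15:35278048-35279510), 16588 bp from the start, differed in the other direction, with 5.59 CPM (4.86 to 6.40), 6.43 (5.95 to 6.93) and 11.4 (10.9 to 11.9). These 2 matched elements lie on the same side of Osr2 and crossed over between the libraries. Of the others named by the rule, Osr2_1 held 8.13, 1.89 and 3.26 CPM and Osr2_3 held 10.6, 2.18 and 4.10, with called widths of 317 and 415 bp at E14.5. Downstream, Osr2_9 held 3.30, 3.67 and 5.32 CPM and Osr2_10 held 2.66, 4.42 and 2.63, and both overlap the neighbouring gene BC048602.

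Tcf4 had 89 intervals, 32 of them shared, with 6 at promoters, as its annotation lists 22 start sites. The most open was the promoter at the first start, Tcf4_2 (chr18:69343794-69352558), with 70.0 CPM (67.4 to 72.8), 80.1 (78.3 to 81.8) and 68.1 (66.8 to 69.4). The promoter interval Tcf4_64 (chr18:69612027-69615649), inside the gene and matched in position, held 57.3 (54.9 to 59.8), 58.3 (56.8 to 59.8) and 39.6 (38.7 to 40.6), and was the one promoter interval of Tcf4 below E12.5 by a log2 ratio past -0.5. The other internal promoters, Tcf4_17 with 15.4, 8.34 and 20.7, Tcf4_36 with 11.6, 18.2 and 18.5, Tcf4_42 with 15.2, 18.9 and 24.7 and Tcf4_59 with 43.6, 51.0 and 57.5 CPM, were each highest at E16.5, where Tcf4_36 overlapped its E14.5 value. Per kb Tcf4_17, Tcf4_42 and Tcf4_59 were lower at E16.5 than at E12.5.

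The largest intronic differences of Tcf4 lay in intervals of unequal called width. Tcf4_71 held 2.26, 7.65 and 19.2 CPM, an 8.50-fold difference from E12.5 to E16.5, but its called width went from 1059 to 5034 bp and the ratio per kb was 0.84 on the log2 scale. Tcf4_62 held 3.69, 6.52 and 11.6 CPM and Tcf4_41 held 3.01, 11.4 and 9.54. In the other direction Tcf4_43 held 3.12, 2.01 and 0.59 CPM, Tcf4_11 held 18.8, 9.31 and 6.06, and Tcf4_49 held 15.6, 9.16 and 5.53. Each of the last 3 was lower in CPM at each later stage, but per kb each was higher at E14.5 than at E12.5, by 0.31, 0.43 and 0.085 on the log2 scale, and lower at E16.5 than at E14.5.

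Tcf7l2 had 69 intervals, 30 of them shared, with 2 at promoters. The first promoter, Tcf7l2_5 (chr19:55739778-55753377), held 101.2 CPM (98.0 to 104.5), 110.2 (108.1 to 112.3) and 117.0 (115.4 to 118.7). The internal promoter, Tcf7l2_58 (chr19:55891819-55901832), held 41.2 (39.2 to 43.3), 16.9 (16.1 to 17.7) and 35.9 (35.0 to 36.8) CPM, with called widths of 8812, 1961 and 9858 bp. In CPM the first promoter was higher at each later stage, but per kb it differed by 0.48 on the log2 scale at the first step and -0.40 at the next. The internal promoter was low in CPM at E14.5, where it was also called narrow, and per kb it differed by 0.88 and -1.24.
Tcf7l2_56 (chr19:55880046-55881509), an intronic matched interval, held 5.47 CPM (4.75 to 6.27), 8.24 (7.70 to 8.81) and 15.4 (14.8 to 15.95). Tcf7l2_69 (chr19:55952901-55954140), downstream of the gene and also matched, held 2.88 (2.37 to 3.46), 6.02 (5.56 to 6.50) and 10.3 (9.83 to 10.8). These elements were 2.81-fold and 3.58-fold higher at E16.5 than at E12.5, and 1.38 and 1.18 higher per kb on the log2 scale. Lower at E16.5 were Tcf7l2_31 with 24.4, 18.4 and 10.8 CPM, Tcf7l2_37 with 7.24, 1.33 and 3.20 and the upstream matched interval Tcf7l2_1 with 4.07, 3.50 and 1.91. Tcf7l2_55 held 12.4, 4.07 and 22.3 CPM.

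**Figure D3:**
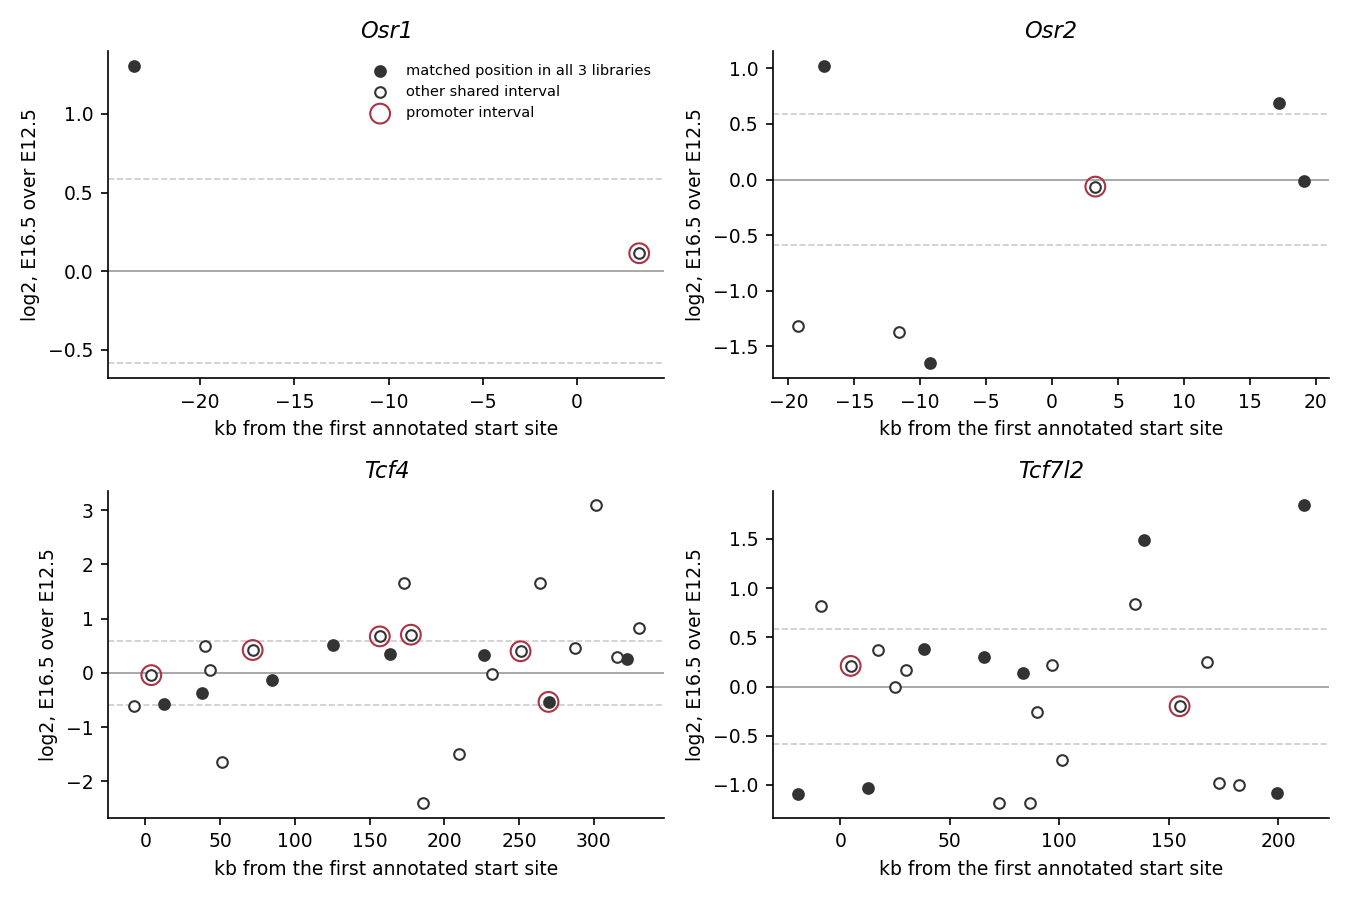
Log2 ratio of CPM, E16.5 over E12.5, of the 58 shared intervals with at least 100 fragments in each library, against the distance of the interval's centre from the first annotated start site in kb; filled points have matched positions, ringed points hold a promoter, and dashed lines mark 1.5-fold. Ringed promoter points lie between -0.53 and 0.71, while other elements reach 3.09 (Tcf4_71) and -2.40 (Tcf4_43).

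Over the 72 shared intervals, 13 were past 1.5-fold higher and 27 lower at E14.5 than at E12.5, beside 17.6% and 33.7% of all shared regions. At E16.5 over E14.5, 38 were higher and 12 lower, beside 32.3% and 14.1%. At E16.5 over E12.5, 22 were higher and 18 lower, beside 26.4% and 25.8%, while of the 58 with at least 100 fragments in each library 13 were higher and 15 lower, beside 16.3% and 29.0%. At the first step the split was 7 higher and 10 lower of 32 at Tcf4 and 4 higher and 14 lower of 30 at Tcf7l2, and at the next 14 higher and 6 lower at Tcf4 and 20 higher and 4 lower at Tcf7l2. Per kb the same intervals gave 31 higher and 3 lower (35.5% and 4.24% of all regions), then 3 higher and 30 lower (2.36% and 46.7%), and from E12.5 to E16.5 14 higher and 15 lower (14% and 24.2%). From E12.5 to E16.5, 13 intervals were higher and 13 lower by both measures, beside 13.4% and 19.1% of all shared regions. The median log2 ratio from E12.5 to E16.5 was 0.23 over the 72 intervals, beside -0.0097 over all shared regions.

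Promoter intervals held a large part of the signal at each locus. Their share of the cut sites was 91.3%, 82.0% and 82.1% at Osr1, 63.0%, 74.1% and 72.2% at Osr2, 52.7%, 55.1% and 49.1% at Tcf4 and 40.7%, 47.6% and 40.1% at Tcf7l2. The intervals not called in every library numbered 102, of which 57 lay at Tcf4 and 39 at Tcf7l2, and their median level was 1.28, 1.60 and 1.19 CPM where called.

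Nuclei were then gated within each library on 5 panels of lineage loci, chondrogenic, tenogenic, fibrogenic, dermal fibrogenic and pericyte. A gate took the nuclei with the most fragments over its panel, at most 10% of the library, left out nuclei in more than 1 gate, and was compared with the nuclei in no gate. A gate is a range of a score and not a cell type. The score is a sum of fragments, so the most open loci of a panel weigh most. At E16.5 Sox5 and Sox6 held 203.7 and 229.5 of the 794 CPM of the chondrogenic panel. Twist2, Axin2 and Lef1 held 136.7, 123.4 and 116.3 of the 672 CPM of the dermal fibrogenic panel. At the matched depth, 0 of 60 comparisons of a locus in a gate passed 1.5-fold in either direction, and the fold ran from 0.692 to 1.36. Over the same 15 gates, 2.51% of all gene values were past 1.5-fold higher and 5.35% lower.

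Because few fragments remained at that depth, the gates were also made, after the values had been seen, with each library thinned to the 25th percentile of its own nuclei (1074, 2410 and 5656 fragments). In 4 of these 60 comparisons the intervals of the shares of nuclei did not overlap, beside 6.05% of all gene values, so that the count was near the background. The share of genes apart differed between gates, at 27.5% in the chondrogenic gate at E16.5, 5.43% in that gate at E14.5 and 8.54% in the tenogenic gate at E16.5. Past 1.5-fold were 0, beside 2.23% higher and 4.43% lower of all gene values. Osr1 was open in 37.4% (33.5 to 41.4) of chondrogenic-gated nuclei at E16.5 against 47.9% (46.7 to 49.1) of ungated ones. Tcf7l2 was open in 55.0% (51.1 to 58.8) of chondrogenic-gated nuclei at E14.5 against 46.1% (45.2 to 47.1). In the chondrogenic gates of the other libraries its intervals overlapped, with 24.1% against 28.5% at E12.5 and 86.9% against 86.7% at E16.5. Tcf4 was open in 57.1% (53.2 to 60.9) of chondrogenic-gated nuclei at E14.5 against 62.0% (61.1 to 62.9), and in 93.6% (91.5 to 95.3) of tenogenic-gated nuclei at E16.5 against 90.2% (89.4 to 90.9). At the matched depth the Osr1 shares were still apart, and the others were not. There Tcf7l2 and Tcf4 had 26.7% against 23.9% and 36.2% against 35.9% in the chondrogenic gate at E14.5. Tcf4 had 39.5% against 36.7% in the tenogenic gate at E16.5. For Osr2 the intervals overlapped in all 15 comparisons.

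In the chondrogenic, dermal fibrogenic and tenogenic gates single elements differed far more than the loci did. The same held for regions against genes over the whole series. In the chondrogenic gate at E16.5, 11.9% of all regions were past 1.5-fold higher and 31.4% lower, against 3.8% and 4.28% of all genes. In the tenogenic gate at E16.5 the shares were 7.66% and 11.8% of regions against 0.801% and 1.07% of genes. In the fibrogenic gate at E16.5 few elements differed. There 1 of 64 intervals was past 1.5-fold higher and 4 lower, beside 2.99% and 9.39% of all regions. In the pericyte gate at E16.5 1 was higher and 3 lower, beside 4.03% and 8.48%. The intervals named here were chosen after their values had been seen, and values are fragments per 100 nuclei. In the E16.5 library the chondrogenic gate held 604 nuclei and the ungated nuclei numbered 6637. Tcf4_31 (chr18:69469208-69470682), an intronic matched interval, held 27.2 per 100 nuclei in the gate against 3.68, a 7.39-fold difference with a log2 interval of 2.59 to 3.18. Tcf7l2_15 (chr19:55779419-55780499), also intronic and matched, held 13.7 against 1.85, 7.41-fold, with a log2 interval of 2.47 to 3.30. Tcf7l2_66 (chr19:55940378-55942211), downstream of the gene and matched, held 16.7 against 3.42, 4.89-fold. Each of these elements lay above 99.2% or more of all shared regions in that gate.

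The same 3 elements were higher in the chondrogenic gate of the E14.5 library, with 666 nuclei against 11321. There Tcf4_31 held 6.91 against 3.62, Tcf7l2_15 held 2.70 against 0.88 and Tcf7l2_66 held 8.41 against 3.41 fragments per 100 nuclei. Tcf7l2_43, which overlaps the neighbouring gene Ppnr, was higher in both gates too, 2.06-fold at E14.5 and 1.92-fold at E16.5. Tcf4_69 and Tcf7l2_31 also differed past 1.5-fold in the chondrogenic gates of both libraries, each in the same direction. Over whole libraries, Tcf4_31 held 6.70, 15.2 and 9.63 CPM, Tcf7l2_15 held 3.76, 3.12 and 4.91, and Tcf7l2_66 held 16.5, 15.4 and 7.83.
In the same E16.5 gate other elements were lower. Osr1_1 held 6.95 against 13.0 fragments per 100 nuclei, Osr2_2 held 2.65 against 6.46, Tcf4_70 held 1.82 against 7.37 and Tcf7l2_56 held 4.14 against 8.17. Over the 64 intervals with enough fragments, 10 were past 1.5-fold higher and 24 lower, beside 11.9% and 31.4% of all regions, so the counts were near the background. At E14.5, 12 of 48 were higher and 9 lower, beside 9.02% and 18%.

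In the dermal fibrogenic gate at E16.5, of 673 nuclei, other elements of the same genes were higher. Tcf7l2_54 (chr19:55872767-55873948) held 17.98 against 5.70 fragments per 100 nuclei, 3.16-fold, and its neighbour Tcf7l2_56 held 20.95 against 8.17, 2.57-fold. At matched depth the ratio of Tcf7l2_56 was 0.0058 on the log2 scale, on 6 fragments in the gate. Tcf7l2_69, 2.82-fold higher in the chondrogenic gate, held 1.78 against 5.17 in the dermal one, a log2 ratio of -1.54 that reversed to 0.23 at matched depth, on 3 fragments in the gate, and was -0.42 with nuclei in more than 1 gate kept. Tcf4_66 held 5.94 against 1.93 and Tcf4_75 held 13.2 against 5.29. The first promoter of Tcf7l2 stayed within 1.5-fold of the ungated nuclei in both gates. Internal promoter intervals of Tcf4 did pass 1.5-fold with a counting interval past 0, for each gate in 1 library only. They were Tcf4_17 (chondrogenic and dermal gates), Tcf4_36 (dermal), Tcf4_42 (tenogenic), Tcf4_59 (chondrogenic) and Tcf4_64 (chondrogenic and tenogenic). Osr2_9 held 6.69 against 3.10 in the dermal gate and 0.99 against 3.10 in the chondrogenic one, while Osr1_1 was lower in both, with 7.13 against 13.0 in the dermal gate. Over the 64 intervals 12 were past 1.5-fold higher and 20 lower, beside 13% and 25.7%, and at Tcf7l2 2 were higher and 11 lower of 26. In the dermal gate at E14.5, of 950 nuclei, none of these elements was past 1.5-fold with its counting interval past 0. There Tcf7l2_56 held 3.05 against 2.36 fragments per 100 nuclei, Osr2_9 held 1.26 against 1.11 and Osr1_1 held 5.26 against 5.11, the ratios of Tcf4_75 and Tcf7l2_69 were 1.54-fold and 1.26-fold, and Tcf7l2_54 and Tcf4_66 had too few fragments for a value. The dermal differences found in both libraries were at Tcf4_4, 1.57-fold at E14.5 and 2.02-fold at E16.5, at Tcf4_62, 1.75-fold and 1.62-fold, and, lower in the gate, at Tcf4_49, 0.403-fold and 0.530-fold. In the tenogenic gate at E16.5, Tcf4_49 held 6.99 against 2.80 and Osr2_3 held 4.62 against 2.26, and each was past 1.5-fold in 1 library only. The tenogenic differences found in 2 libraries were at Tcf7l2_11 and Tcf7l2_56, each with the same direction in both. Over the 64 intervals in the tenogenic gate at E16.5, 6 were past 1.5-fold higher and 5 lower, beside 7.66% and 11.8% of all regions.

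**Figure D4:**
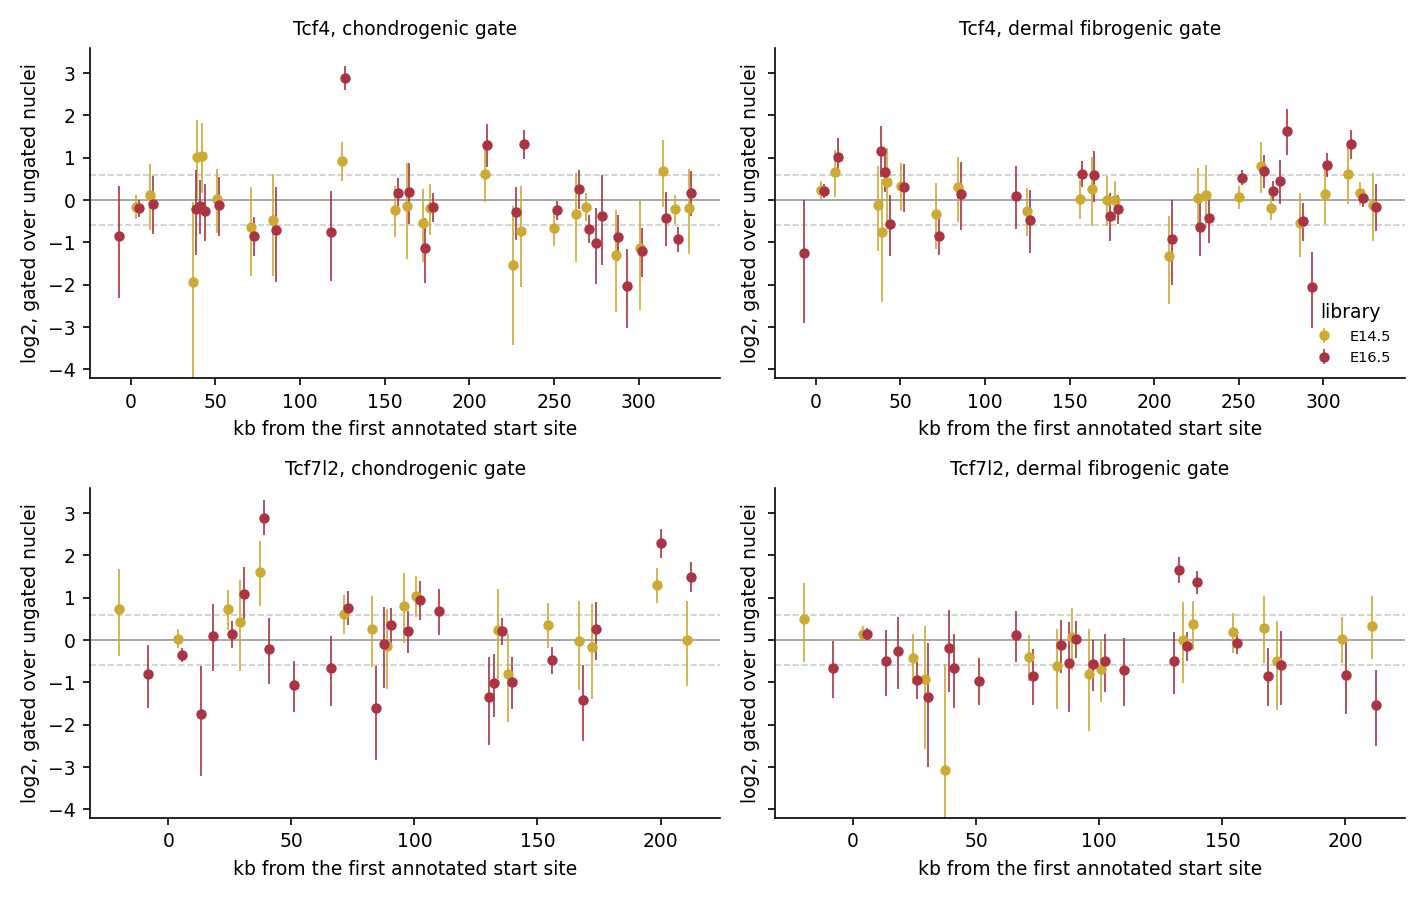
Log2 ratio of fragments per nucleus, gated over ungated nuclei, for shared intervals of Tcf4 and Tcf7l2 with at least 100 fragments in the ungated nuclei, against the distance from the first annotated start site in kb, in the chondrogenic (left) and dermal fibrogenic (right) gates of the E14.5 and E16.5 libraries, with 95% counting intervals; dashed lines mark 1.5-fold. Tcf4_31 and Tcf7l2_15 reach 2.88 and 2.89 in the chondrogenic gate at E16.5, and Tcf7l2_54 reaches 1.66 in the dermal gate.

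Of 82 pairs of an interval and a gate past 1.5-fold with a counting interval past 0, 11 (13.4%) were found in at least 2 libraries, beside 10.7% of such pairs over all shared autosomal regions. All 11 had the same direction in each library, beside 95.9% of the repeated pairs over all regions, so both were near the background. The gates overlap with their surroundings: at E16.5, 221 nuclei stood at the chondrogenic limit of 8 fragments and 363 a single fragment below it, and 404 and 692 did so at the dermal limit of 7. Chondrogenic-gated nuclei had a median of 10 fragments over their own panel against 3 in ungated nuclei, and over the tenogenic, fibrogenic, dermal and pericyte panels 2, 1, 3 and 2 against 2, 2, 3 and 2.

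The genes whose accessibility over the 18 gated and ungated classes of the 3 libraries was most like that of a member were Toe1 (r = 0.85), Cel (0.84) and Nup88 (0.84) for Osr1, Cbx2 (0.77), Med15 (0.76) and Ext1 (0.73) for Osr2, Ptpn7 (0.87), Ppp1r14a (0.85) and Ern1 (0.81) for Tcf4 and Myl4 (0.90), Ppargc1a (0.89) and Psen2 (0.88) for Tcf7l2. These were the highest of 8738 genes, the classes share libraries and depth, and the values are a description. Among the members themselves the highest r was 0.40, between Osr1 and Tcf4, and the lowest was -0.22, between Osr1 and Tcf7l2. No member was among the 3 genes most like another.

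Genes related to these factors by family, pathway or tissue were read over the gene body and 2 kb upstream. Of 21 such genes, 0 were past 1.5-fold higher and 1 lower at E14.5 over E12.5 (7.26% and 6.65% of all genes), 2 and 0 at E16.5 over E14.5 (5.83% and 5.23%), and 3 and 1 at E16.5 over E12.5 (6.25% and 8.32%). Among the E-proteins and their partners, Id1, an inhibitor that binds E-proteins, held 194.8, 118.5 and 98.3 CPM, a log2 ratio of -0.99 at E16.5 over E12.5, and Tcf3, an E-protein, had the highest such ratio of the group, 0.42, with 44.8, 54.7 and 59.9 CPM. Among TCF/LEF and Wnt genes, Nkd1, a feedback inhibitor of Wnt signalling, had the highest ratio, 0.68, with 102.6, 146.5 and 163.9 CPM, and Lef1, a factor of the same family as Tcf7l2, the lowest, -0.30, with 124.6, 125.0 and 101.3. Among muscle connective tissue genes the collagen gene Col3a1 had the highest ratio, 1.38, with 68.0, 71.9 and 177.5 CPM, and the chemokine gene Cxcl12 the lowest, -0.16, with 65.8, 60.2 and 59.0. Per kb of called width, 11 of the 21 were past 1.5-fold higher and 0 lower at E14.5 over E12.5 (37.2% and 0.308% of all genes), 0 and 14 at E16.5 over E14.5 (0.226% and 64.7%) and 0 and 2 at E16.5 over E12.5 (1.49% and 11.2%), where Col3a1 stood at 0.18. The named ranks are those in CPM. Per kb at E16.5 over E12.5, Id1, Tcf3 and Col3a1 kept theirs. Col6a2, at -0.93, was then below Cxcl12, at -0.17. Tcf7, at 0.30, was above Nkd1, at 0.21, and Tcf7l1, at -0.20, below Lef1, at -0.19.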

How the data were processed

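Single-nucleus ATAC-seq libraries had been made by the authors with the 10x Chromium system, aligned to mm10 and called for peaks with Cell Ranger ATAC in each library alone. The authors deposited raw counts of cut sites for each peak and nucleus, with no normalisation. The labels give version 1.1.0, and the file headers 1.0.1 for E12.5 and E14.5 and 1.2.0 for E16.5. Peaks overlapping by 1 bp were merged into intervals, and genes and start sites were taken from GENCODE M21 on GRCm38, past whose chromosome ends no peak lay. CPM are cut sites per 1000000 in the 82930 shared autosomal regions. Intervals were computed on fragments (cut sites divided by 2, rounded up), exact Poisson for sums and Clopper-Pearson for shares, at 95%, for counting error only. A promoter was taken as 1000 bp upstream to 100 bp downstream of a start site. All deposited nuclei were used, no doublet caller was run, and the deepest 5% were left out as an alternative. Thinning to 1074 fragments left out 2071, 0 and 252 nuclei in order of stage. Python 3.11.15, numpy 2.4.6, pandas 2.3.3 and scipy 1.17.1 were used. Interval coverage was checked only on counts simulated from the Poisson model that the intervals assume. It therefore says nothing about variation between nuclei or libraries beyond counting error.

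No test between stages was possible. The members, panels and gene lists were chosen with earlier results of these data known. By the rule for naming intervals, the text gives each promoter interval, the most open interval at each stage, and the 3 highest and 3 lowest ratios of E16.5 over E12.5 with at least 100 fragments in each library, and intervals named for gates were chosen after their values had been seen. The chondrogenic panel had 11 genes, dermal fibrogenic 10, pericyte 8, and tenogenic and fibrogenic 9 each, of which 8 were used, since Tnmd is X-linked and Ly6a had no shared region. Alternatives changed the scaling, width, positions, depth, filters and gate definitions. Their effect is given in the closing section.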

Additional observations from a re-analysis of the deposited data

Results flagged for a closer look

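Signal lay in intervals that the comparisons between stages did not use, since not every library had called them. The strongest of these at each gene were Osr1_5 (chr12:9589625-9591661, downstream of the gene) with 7.22 CPM at E16.5 and 1.60 at E14.5, Osr2_7 (chr15:35309478-35309926, downstream) with 1.16 CPM at E16.5 and 0.89 at E12.5, Tcf4_24 (chr18:69435534-69437318, intron) with 10.5 CPM in the E12.5 library and 4.27 in that of E16.5, and Tcf7l2_12 (chr19:55772854-55775362, intron) with 13.0 CPM at E16.5 and 4.76 at E12.5. Osr1_5 was not called at E12.5, and the others were not called at E14.5. A missing call is no measure of 0, as values exist only where a library called a peak.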

How the results depend on the processing

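No paired analysis was possible because each stage had 1 library, and for the same reason no replicate could be left out. Of the alternative values of the main results, 48 stayed within the counting interval or within 1.5 times for counts, 76 moved and 11 reversed. Of those of the other results, 128 stayed, 66 moved and 6 reversed. The values of the main results that moved or reversed follow, with the reversals of the others. Loci are in the order Osr1, Osr2, Tcf4 and Tcf7l2, as log2 ratios of E14.5 over E12.5 and then of E16.5 over E14.5. With the median region as the scale they were 0.47, -0.13, 0.26 and -0.20, then -0.17, -0.089, -0.018 and 0.36, with Osr2 and Tcf4 reversed at the second step. As mean cut sites per nucleus they were 0.42, -0.19, 0.21 and -0.26, then 1.26, 1.33, 1.41 and 1.79, and Osr2 at E16.5 over E12.5 reversed to 1.15. Per kb of called width they were 0.65, 0.43, 0.58 and 0.71, then -0.44, -0.87, -0.76 and -0.69, and Tcf4 at E16.5 over E12.5 reversed to -0.17. Osr2, Tcf4 and Tcf7l2 thus each had a direction that differed between the sum and the value per kb. With the binarised matrix they were 0.72, -0.052, 0.10 and -0.24, then -0.57, -0.28, 0.051 and 0.35. With matched positions only they were 1.33, -0.14, 0.17 and -0.14, then -0.079 for Osr2, -0.25 for Tcf4 and 0.26 for Tcf7l2, and -0.079 for Tcf4 at E16.5 over E12.5. These rest on 1, 4, 8 and 9 matched intervals in the order of the genes. For Osr1 the value is that of Osr1_1 alone, without the promoter interval. With the gene body and 2 kb upstream, E14.5 over E12.5 was 0.13 at Osr1, -0.087 at Osr2 and -0.42 at Tcf7l2, and E16.5 over E14.5 was 0.024 at Osr2 and 0.56 at Tcf7l2. With every peak of a library, Tcf4 reversed to -0.12 and Tcf7l2 was -0.53 at the first step, and Osr1, Tcf4 and Tcf7l2 were 0.14, 0.38 and 0.68 at the second. Without the deepest nuclei the first step was -0.27 at Osr2, 0.13 at Tcf4 and -0.31 at Tcf7l2. With the thinned matrix it was -0.16, 0.15 and -0.35, and the second step 0.032 at Tcf4 and 0.54 at Tcf7l2. The cause of these differences was not tested.

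Counts of intervals, higher then lower, came to 31 and 3, then 3 and 30, and 14 higher at E16.5 over E12.5, per kb, to 6 and 2, 6 and 6, and 6 and 4 of 22 with matched positions (16.5% and 18.8%, 11.9% and 17.4%, and 16.1% and 23.1% of all such regions), and to 13 higher and 15 lower of 58 at E16.5 over E12.5 with at least 100 fragments (16.3% and 29.0%). At 2-fold, 7 were higher at the first step (10.5%), and 18 higher and 3 lower at the second (19.8% and 6.91%). Per kb the related genes gave 11 and 0, 0 and 14, and 0 and 2, while the median of all genes stood at 0.50, -0.68 and -0.19. Shares of nuclei at E16.5 over E12.5, not thinned, were 1.32, 0.997, 0.74 and 0.83 on the log2 scale, Tcf7l2 at E14.5 over E12.5 reversed to 0.34, and with cut sites thinned Tcf4 and Tcf7l2 were 0.35 and 0.39. With a score of the number of panel loci, 1 gate comparison passed 1.5-fold higher and 1 lower (3.71% and 7.20% of all gene values), and with the highest-scoring twentieth, 5% of nuclei, 4 lower (11.4%). Among single intervals, Tcf4_42 reversed to -0.18 per kb, and Tcf7l2_69 in the dermal gate to 0.23 at matched depth, on few fragments. The chondrogenic gate values of Tcf4_31, Tcf7l2_15 and Tcf7l2_66 ran from 2.03 to 3.11, 2.72 to 3.32 and 1.47 to 2.74 on the log2 scale over 4 other gate settings, added after the data had been seen, while Tcf7l2_56 in the dermal gate came to 0.0058 at matched depth. The E12.5 library was the shallowest, with 10 intervals of the 4 genes deep enough for the gates against 48 and 64 in the others.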
